A study of Homo sapiens with 3 samples.

Results

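The tumour necrosis factor (TNF) superfamily of ligands and its superfamily of receptors were described in RCC4 cells, a line from a human clear cell kidney cancer. The genes were chosen by symbol, as TNFSF or TNFRSF followed by a number, or as 1 of the members with a name of its own (TNF, LTA, LTB, LTBR, CD40, CD40LG, CD70, CD27, FAS, FASLG, NGFR, EDAR, EDA, EDA2R and RELT). The rule found 47 of the 60605 genes in the table, 18 ligands and 29 receptors. All 3 libraries came from cells that carried a lentiviral Cas9 vector and received IFN-gamma at 1000 U/mL with TNF at 25 ng/mL for 24 h. Each library was labelled a biological replicate and drew on 3 flasks. No untreated cells were analysed here, so the values are levels in treated cells and not responses to the cytokines.

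Ligands of this superfamily are mostly trimeric membrane proteins, some of them shed by proteases, and each engages receptors with cysteine-rich domains on a neighbouring or the same cell. Many receptors feed the canonical or noncanonical NF-kappa-B pathways, often through TRAF adaptors, whether or not they carry a death domain. Some of those with a cytoplasmic death domain can also assemble caspase-activating complexes. Decoy receptors bind a ligand without passing on a complete signal. On epithelial and tumour cells the family is known for death signalling through TRAIL, FAS and TNF, and for costimulation of T cells.

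Of the 47 members, 21 were detected, meaning a level of 1 CPM (reads scaled to library size) or more in every library, against 51.4% of all protein-coding genes. The 21 were 5 of 18 ligands and 16 of 29 receptors: 6 of 8 receptors with a death domain, 1 of 4 decoy or secreted receptors and 9 of 17 other receptors. A further 13 members had some reads below that level, and 13 were listed at 0 in each library. The ligands CD70, TNFSF10 and TNFSF9 and the receptors TNFRSF12A, CD40, TNFRSF1A, LTBR, TNFRSF10B and TNFRSF21 held most of the family's measured RNA. The members' median level was 0.261 RPKM, the CPM per kilobase of exon, against 0.482 RPKM over all protein-coding genes. By class the medians were 0.0932 RPKM for ligands and 1.00 RPKM for receptors. These medians count as 0 the 8 members, 4 ligands and 4 receptors, that lie almost wholly within other genes and for which no level can be read. Without such genes the medians were 0.192 RPKM for 14 ligands, 2.70 RPKM for 25 receptors and 1.41 RPKM for protein-coding genes.

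The libraries held 26264283 to 33458691 reads assigned to genes. Replicate 1 stood apart from replicates 2 and 3 along the GC content of the transcripts, so values are given per library. All 8 renal and RCC4 markers fixed for this check (PAX8, PAX2, KRT8, KRT18, KRT19, CA9, CDH2 and EPCAM) were detected, with a summed level of 1654 to 2194 CPM. Of 6 markers of T, B and NK cells, 5 were listed at 0 and the sum was at most 0.0737 CPM. Myeloid markers summed to 5.08 to 6.11 CPM with CSF1R and ITGAM detected, 2 of 4. Endothelial markers summed to at most 0.515 CPM with 0 of 4 detected. Fibroblast markers summed to 7.68 to 9.32 CPM with COL1A1 detected, 1 of 4. The part of other cell types in the levels of members that leukocytes also express, such as CD40 and TNFSF13B, was not tested.

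**Figure D1:**
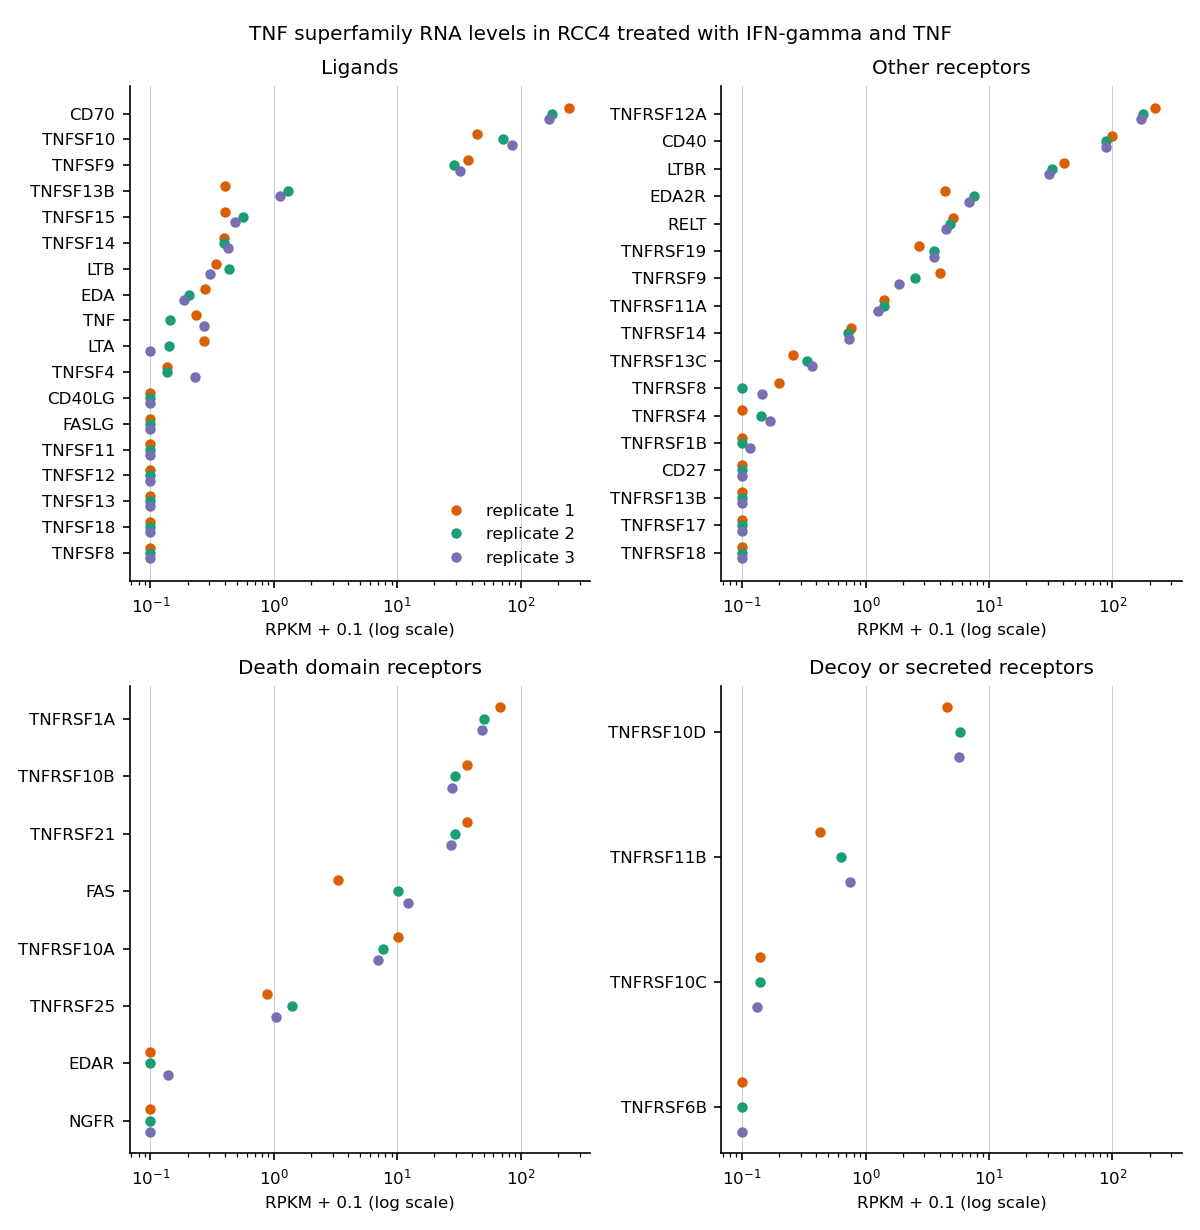
RNA level of all 47 members, grouped by role; each point is 1 library, and the x axis is RPKM + 0.1 on a log scale, so a member listed at 0 sits at 0.1. Among members whose level can be read, CD70, TNFSF10 and TNFSF9 stand far above the other ligands, and TNFRSF12A (171 to 221 RPKM) above the other receptors. The 8 members almost wholly within other genes also sit at 0.1, and no level can be read for them.

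The treatment makes promoter elements for NF-kappa-B and for interferon-activated factors a natural context, and short stretches of 5 members are shown for that reason. Promoters of 30 members were found in the RefSeq promoter table (GRCh38.p14), which covers 250 bases before to 50 bases after an annotated start. Searched on both strands, the kappa-B motif occurred in the promoters of 8 of the 30 members (FAS, LTA, LTB, TNFRSF9, TNFRSF14, TNFRSF25, TNFSF13 and TNFSF14), against 7.09% of 27305 genes. The interferon response core, GAAA, any 2 bases and GAAA, occurred in 6 of 30 (FASLG, TNFRSF1B, TNFSF9, TNFSF10, TNFSF13B and TNFSF14), against 4.38% of genes. The gamma-activated site TTCNNNGAA occurred in 4 of 30 (LTA, LTB, TNFRSF9 and TNFSF11), against 9.38% of genes. In the 41 windows of these members, matches of different motifs overlapped in 0. Each stretch is 30 bases long, reads 5′ to 3′ on the gene's strand, and has the match in capitals; TNFRSF9 holds overlapping kappa-B matches on both strands, and LTB and TNFSF10 hold theirs on the opposite strand.
TNFRSF9, kappa-B, chr1:7940893-7940922, minus strand: agctgtggtGGGAATTTCCCatgagacccc
LTB, kappa-B, chr6:31582492-31582521, minus strand: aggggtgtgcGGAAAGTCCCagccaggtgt
TNFSF10, interferon response core, chr3:172523598-172523627, minus strand: gaggagcttcTTTCAGTTTCcctcctttcc
TNFSF9, interferon response core, chr19:6530822-6530851, plus strand: tggaaggccgGAAACGGAAAggagagcgaa
TNFSF13B, interferon response core, chr13:108269637-108269666, plus strand: tacaaaaactGAAAGTGAAAtgaggaagac
The first capital lies at -74, -86, -187, -194 and -71 relative to the RefSeq start in TNFRSF9, LTB, TNFSF10, TNFSF9 and TNFSF13B. A match is a description of these letters and not a bound site. Of these 5 members, LTB had 10 to 14 reads per library and TNFSF10 had 4132 to 10195.

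Among the ligands, CD70, which engages CD27 on T cells, had the highest level. It was measured at 248, 180 and 170 RPKM in replicates 1, 2 and 3, a mean of 199 ± 42.4 RPKM (SD, n = 3). Replicate 1 was the highest library for this gene, and replicates 2 and 3 lay close together. TNFSF10, which encodes the death ligand TRAIL, followed at 43.8, 71.7 and 84.4 RPKM, with replicate 1 lowest. TNFSF9, a costimulatory ligand of T and NK cells, was measured at 37.3, 28.9 and 31.8 RPKM, with replicate 1 highest. CD70 alone made up 65.8% ± 8.26 of the summed ligand RPKM (SD, n = 3), and CD70, TNFSF10 and TNFSF9 together 99.3% ± 0.207. This sum counts TNFSF8, TNFSF12, TNFSF13 and TNFSF18 as 0. They lie almost wholly within other genes, and no level can be read for them. The share of CD70 was 75.0%, 63.6% and 58.9% in replicates 1, 2 and 3, and that of TNFSF10 was 13.3%, 25.3% and 29.3%.

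The other detected ligands were near the detection level. TNFSF15, a ligand of the death receptor TNFRSF25, stood at 0.383 ± 0.0839 RPKM (SD, n = 3), from 64, 100 and 105 reads. TNFSF14, or LIGHT, a ligand of TNFRSF14 and LTBR, had 38, 38 and 54 reads, or 0.304 ± 0.0185 RPKM. TNFSF13B, the B-cell survival factor BAFF, had 25, 100 and 109 reads and missed detection only through replicate 1, at 0.921 CPM. EDA, the ectodermal ligand of EDAR and EDA2R, had 34, 20 and 21 reads.

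RNA of TNF itself, the cytokine that was added as protein, was close to 0, with 6, 2 and 10 reads. The neighbouring lymphotoxin genes were also low: LTA had 8, 2 and 0 reads and LTB had 10, 14 and 11. TNFSF4, a costimulatory ligand of T cells, had 4, 4 and 18 reads. The ligands CD40LG, FASLG, TNFSF8, TNFSF11, TNFSF12, TNFSF13 and TNFSF18 were listed at 0 reads in each library. For CD40LG, FASLG and TNFSF11, a count of 0 allows up to 3 reads, or 0.0862 to 0.110 CPM, by counting error alone if reads are independent. Where both mates of a pair were counted, that limit is too low. The other 4 lie almost wholly within other genes, and no limit is given for them.

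TNFRSF1A, the death domain receptor for TNF found on most cells, led the death domain receptors. It was measured at 67.2, 50.2 and 48.5 RPKM in replicates 1, 2 and 3. TNFRSF10B, a TRAIL receptor that can start apoptosis, was measured at 36.7, 29.2 and 27.6 RPKM. TNFRSF21, a death domain receptor studied mostly in neurons and lymphocytes, was nearly the same at 36.3, 29.2 and 27.3 RPKM. In all 3 of these receptors replicate 1 was the highest library, and the spread between replicates 2 and 3 was small.

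TNFRSF10A, the other signalling TRAIL receptor, was lower, at 10.0, 7.57 and 6.91 RPKM. FAS, the receptor for FASLG, varied most among the detected death domain receptors, at 3.22, 9.96 and 12.1 RPKM. Its 372 reads in replicate 1 stood against 1151 and 1797 reads in replicates 2 and 3. The span of ACTA2, which had 6, 12 and 6 reads, overlaps 16.6% of its exon sequence. TNFRSF25, which is best known on T cells, stood at 0.774, 1.30 and 0.940 RPKM. EDAR, the ectodermal receptor, had 0, 0 and 6 reads, and NGFR, the low-affinity neurotrophin receptor, was listed at 0 reads in each library. TNFRSF1A made up 40.8% ± 2.44 (SD, n = 3) of the summed RPKM of the death domain receptors, TNFRSF10B 23.0% ± 0.732 and TNFRSF21 22.8% ± 0.725. NGFR, which lies almost wholly within other genes and whose level cannot be read, counts as 0 in that sum. The share of FAS was 2.09%, 7.82% and 9.84% in replicates 1, 2 and 3.

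Of the decoy and secreted receptors, TNFRSF10D, a TRAIL receptor with a truncated death domain, was the detected one. It was measured at 4.43, 5.68 and 5.65 RPKM. TNFRSF11B, the secreted decoy osteoprotegerin that binds RANKL and TRAIL, had 25, 41 and 64 reads and missed detection through replicate 1, at 0.921 CPM. TNFRSF10C, a TRAIL decoy anchored by a lipid, had 2 reads in each library. TNFRSF6B, the soluble decoy for FASLG, TNFSF14 and TNFSF15, was listed at 0.

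Among receptors that signal through TRAF adaptors without a death domain, TNFRSF12A stood highest. This receptor for TWEAK, induced by growth factors in many tissues, was measured at 221, 177 and 171 RPKM in replicates 1, 2 and 3. CD40, the receptor through which helper T cells activate antigen-presenting cells, varied little between libraries, at 99.2, 87.9 and 89.0 RPKM. LTBR, the lymphotoxin beta receptor that drives noncanonical NF-kappa-B, was measured at 40.1, 32.4 and 30.5 RPKM. TNFRSF12A, CD40, TNFRSF1A and LTBR together held 77.9% ± 1.40 of the summed receptor RPKM (SD, n = 3), and TNFRSF12A alone 39.8% ± 1.17. That sum counts CD27, NGFR, TNFRSF6B and TNFRSF17, whose level cannot be read, as 0.

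A middle group of these receptors lay between 1 and 10 RPKM. EDA2R, the X-linked receptor for an isoform of EDA, stood at 4.27, 7.41 and 6.75 RPKM, with replicate 1 lowest. RELT, a receptor with little-known ligands, stood at 5.04, 4.69 and 4.41 RPKM. TNFRSF19, an embryonic and epithelial receptor, stood at 2.62, 3.50 and 3.46 RPKM. TNFRSF9, the costimulatory receptor for TNFSF9, stood at 3.92, 2.42 and 1.77 RPKM, with replicate 1 highest. TNFRSF11A, the receptor RANK for TNFSF11, stood at 1.32, 1.31 and 1.15 RPKM.

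TNFRSF14, which binds TNFSF14 and the inhibitory receptor BTLA, was the lowest detected receptor at 0.634 ± 0.0213 RPKM (SD, n = 3). The remaining receptors of this class were not detected. TNFRSF13C, the BAFF receptor, had 17, 25 and 37 reads, TNFRSF8 had 10, 0 and 6 and TNFRSF4 had 0, 2 and 4. TNFRSF1B, the TNF receptor of leukocytes and endothelium, had 0, 0 and 2 reads. TNFRSF13B and TNFRSF18 were listed at 0 in each library, as were CD27 and TNFRSF17, which other genes overlap.

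In order of mean RPKM the detected members ran CD70, TNFRSF12A, CD40, TNFSF10, TNFRSF1A, LTBR, TNFSF9, TNFRSF10B, TNFRSF21, FAS, TNFRSF10A, EDA2R, TNFRSF10D, RELT, TNFRSF19, TNFRSF9, TNFRSF11A, TNFRSF25, TNFRSF14, TNFSF15 and TNFSF14. Neighbours in this order were compared within each library and were taken to differ beyond the replicate spread when the log2 ratio had the same sign in all 3 libraries and its mean exceeded 2 SD. Of the 20 neighbouring steps, 4 passed: TNFRSF12A over CD40, TNFRSF1A over LTBR, TNFRSF9 over TNFRSF11A and TNFRSF14 over TNFSF15. TNFRSF9 over TNFRSF11A, at 0.973 ± 0.477, and TNFRSF14 over TNFSF15, at 0.619 ± 0.295, passed by little. No alternative processing was run for the neighbouring steps. The step from TNFRSF12A to CD40 was 1.04 ± 0.109 on the log2 scale (SD, n = 3). The other 16 steps did not pass, among them CD70 over TNFRSF12A, at 0.059 ± 0.093, and TNFRSF10B over TNFRSF21, at 0.011 ± 0.0080. The step from TNFRSF21 to FAS was wide but uneven, at 3.45, 1.54 and 1.16 on the log2 scale in replicates 1, 2 and 3.

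Ratios of ligand to receptor, and between receptors of 1 ligand, were formed for 13 of 31 listed pairs, those with reads of both genes in every library and 10 or more of each gene in at least 1. Of the 13, 12 passed the replicate spread. Ratios are log2 of RPKM + 0.1, which understates the distance of genes near 0. In the TRAIL system, the RNA of TNFSF10 exceeded that of TNFRSF10A 7.88-fold (log2 2.98 ± 0.769; SD, n = 3) and that of TNFRSF11B by 6.78 ± 0.0751 on the log2 scale. The log2 ratio to TNFRSF10A was 2.12, 3.23 and 3.59 in replicates 1, 2 and 3. Over the exon length outside other genes' spans its mean was 2.58. Against TNFRSF10B the ratio of TNFSF10 was 0.26, 1.29 and 1.61 in replicates 1, 2 and 3, and its mean of 1.05 ± 0.709 did not pass. Without replicate 1 it was 1.45 and passed, and with GC correction between libraries it was 1.05 and passed.

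The receptors for TRAIL kept a nearly constant order among themselves. TNFRSF10A stood below TNFRSF10B by a log2 ratio of -1.93 ± 0.0608 (SD, n = 3), with -1.86, -1.93 and -1.98 in replicates 1, 2 and 3. TNFRSF10D stood below TNFRSF10B at -2.54 ± 0.415, and most of that spread came from -3.02 in replicate 1 against -2.34 and -2.27 in replicates 2 and 3. Other genes' spans overlap 24.6% of the exon sequence of TNFRSF10A and 9.62% of that of TNFRSF10B, and over the length free of overlap TNFRSF10A stood at 10.8 RPKM and TNFRSF10B at 34.5 RPKM. The TNFRSF10 genes resemble each other in sequence and how reads fitting several genes were handled is not known here, so their relative levels carry that uncertainty. The antisense gene TNFRSF10A-AS1 had 131, 45 and 37 reads in replicates 1, 2 and 3, and reads of TNFRSF10A and its antisense partner may not be separable.

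**Figure D2:**
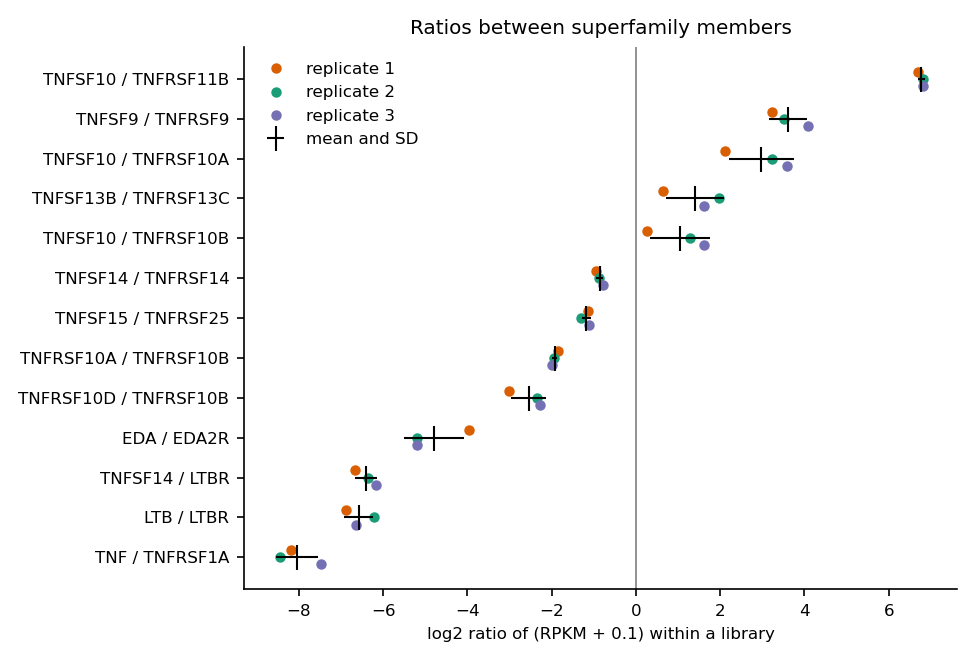
Log2 ratio of RPKM + 0.1 between the members of each measured pair, within each library; coloured points are libraries and black marks give the mean and SD over 3 libraries. TNFSF10, TNFSF9 and TNFSF13B lie above the receptors they are set against, and TNF, LTB, TNFSF14, EDA and TNFSF15 lie below theirs.

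In the costimulatory pair, TNFSF9 exceeded its receptor TNFRSF9 12.2-fold (log2 3.61 ± 0.444; SD, n = 3), from 3.22 in replicate 1 to 4.09 in replicate 3. In the other direction, TNF lay below TNFRSF1A by a log2 ratio of -8.04 ± 0.497 and LTB below LTBR at -6.58 ± 0.338. TNFSF14 lay below LTBR at -6.41 ± 0.255 and below TNFRSF14 at -0.86 ± 0.0843. EDA lay below EDA2R at -4.79 ± 0.708, and TNFSF15 below TNFRSF25 at -1.18 ± 0.107. TNFSF13B exceeded TNFRSF13C at 1.40 ± 0.690 from few reads. That ratio no longer passed with a pseudocount of 1 (0.56), without length scaling (1.29), without replicate 2 (1.12) or without replicate 3 (1.30). For CD70, CD40, FAS and TNFRSF12A no ratio was formed, because CD27, CD40LG, FASLG and TNFSF12 were listed at 0. Of these, CD27 and TNFSF12 lie almost wholly within other genes, and no level can be read for them.

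Several members sit side by side in the genome (GENCODE 29, GRCh38), some with unlike and some with like levels. On chromosome 19, TNFSF9 (6530999 to 6535928), CD70 (6583183 to 6604103) and TNFSF14 (6661253 to 6670588) stood at 32.7, 199 and 0.304 RPKM. On chromosome 12, TNFRSF1A (6328757 to 6342114) and LTBR (6375045 to 6391571) stood at 55.3 and 34.4 RPKM, and no level can be read for CD27 (6444867 to 6451718) beside them. On chromosome 6, LTA, TNF and LTB lie between 31572054 and 31582522, and all 3 were close to 0. On chromosome 8, TNFRSF10B, TNFRSF10C, TNFRSF10D and TNFRSF10A lie in that order between 23020133 and 23225126, at 31.2, 0.0365, 5.25 and 8.17 RPKM. On chromosome 1, TNFRSF8 and TNFRSF1B are neighbours (12063377 to 12209228), as are TNFRSF18 and TNFRSF4 (1203508 to 1214138), and none of these 4 was detected.

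Zeros in this table went with overlap between genes. Of 666 protein-coding genes whose exons lie wholly within other genes' spans without touching their exons, 666 were listed at 0, including all 483 that lie inside 1 gene on the opposite strand. Among protein-coding genes free of such overlap, 27.2% were listed at 0. Other spans overlap 80% or more of the exon sequence of 8 members: CD27, NGFR, TNFRSF6B, TNFRSF17, TNFSF8, TNFSF12, TNFSF13 and TNFSF18. All 8 were listed at 0, against 72.8% of the 3177 protein-coding genes with as much overlap, of which 8.69% were detected. TNFSF12 and TNFSF13 lie within the readthrough gene TNFSF12-TNFSF13, itself listed at 0, and TNFRSF6B within RTEL1-TNFRSF6B, which had 15, 5 and 15 reads. No level can be read for these 8 members.

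The other 39 members have less overlap, and 21 of them were detected, against 59.5% of protein-coding genes with as little overlap. Of the 39, 5 were listed at 0: CD40LG, FASLG, TNFSF11, TNFRSF13B and TNFRSF18. TNFRSF10C, at 2 reads per library, has 53.1% of its exon sequence overlapped by other spans. If reads in overlapped sequence were not counted, RPKM over the full exon length understates members with partial overlap. Over the free length FAS stood at 10.1 RPKM in place of 8.44, TNFRSF12A at 199.7 in place of 189.7, LTBR at 37.7 in place of 34.4 and TNFRSF25 at 1.20 in place of 1.00. RELT stood at 5.47 RPKM in place of 4.71, TNFRSF14 at 0.737 in place of 0.634 and TNFRSF10C at 0.0778 in place of 0.0365.

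**Figure D3:**
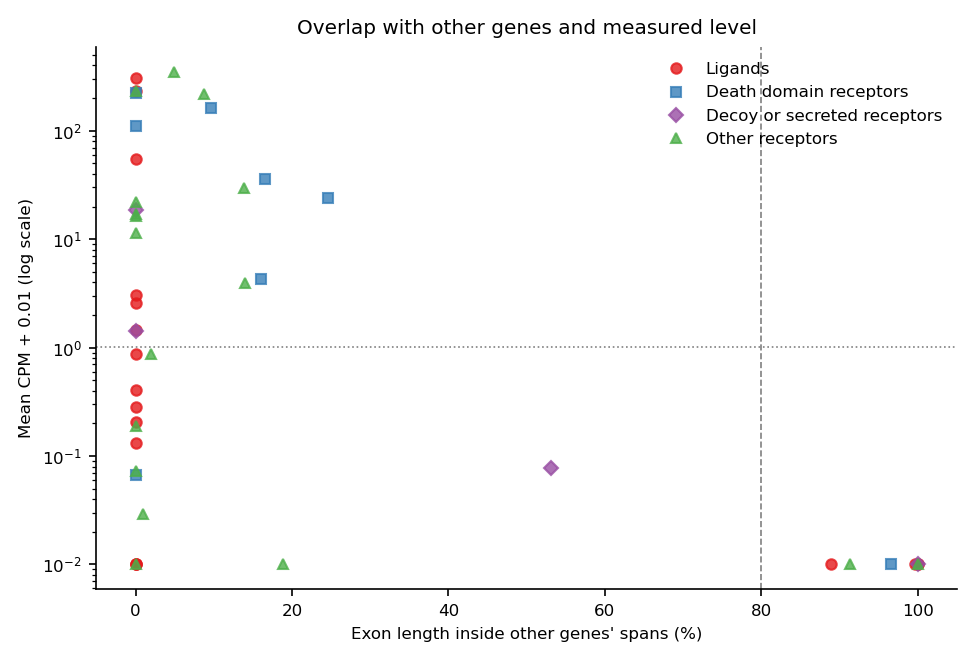
Mean CPM + 0.01 over 3 libraries (log scale) against the percentage of exon sequence overlapped by other genes' spans, 1 point per member; the dashed line is at 80% and the dotted line marks 1 CPM. The 8 members to the right of the dashed line are all at 0 CPM, while members with little overlap cover the whole range.

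Replicate 1 differed from the other libraries in a gene-specific way. Of the 21 detected members, 13 were highest in replicate 1, against 48.5% of all 11266 detected genes, and 7 were lowest there, against 43.0%. FAS was the member below 50% of the mean of replicates 2 and 3, 1 of 21, against 13.3% of all detected genes, and 0 of 21 were more than 2-fold above that mean, against 0.186%. The direction followed GC content in most members: 11 of the 13 members with a GC content of at least 50% were highest in replicate 1, and 6 of the 8 with less were lowest in it. This trend was not particular to the members. Over 20 GC bins of all detected genes, the median log2 ratio ran from -1.53 at 37.5% GC to 0.41 at 65.3% GC. The shares of all detected genes highest or lowest in replicate 1 were not split by GC content. Spearman's rho over the 21 members, which share the same 3 libraries, was 0.374.

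A few members, picked here for that distance, lay far from genes of similar GC content, all detected genes having been placed in 20 bins. TNFRSF9, with a GC content of 44.5%, was above the other libraries in replicate 1 by 0.90 on the log2 scale where its bin had a median of -0.22. Of the genes in that bin, 99.8% had a lower ratio. FAS, at 42.1% GC, stood at -1.78 where its bin had a median of -0.61, and 5.53% of the bin lay lower. TNFRSF25, at 63.6% GC, stood at -0.53 against a bin median of 0.37, with 1.96% of the bin lower. CD70, TNFRSF12A, CD40, LTBR and TNFSF9 lay within 0.16 of their bin's median. With GC correction the log2 ratio was 1.12 for TNFRSF9, -1.16 for FAS and -0.90 for TNFRSF25. That correction removes each bin's median, so these values largely restate the same distances.

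**Figure D4:**
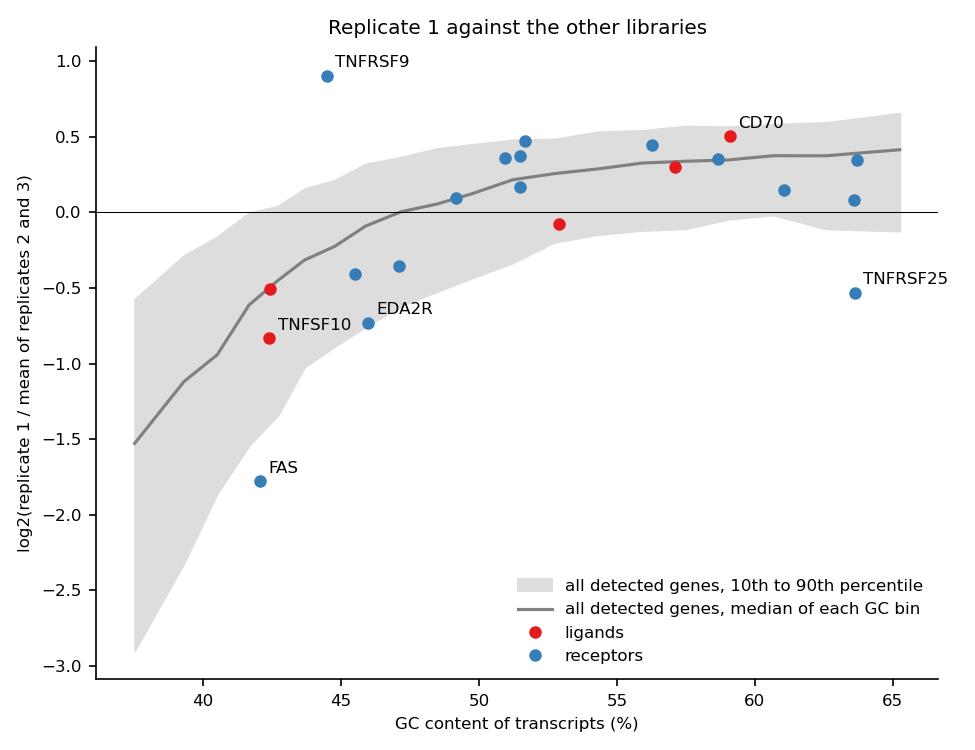
Replicate 1 relative to the mean of the other libraries (log2) against the GC content of the gene's transcripts, for the 21 detected members (points) over the median and the 10th to 90th percentile of all detected genes in 20 GC bins (line and band). TNFRSF9 lies above the band, and FAS and TNFRSF25 lie below it.

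Genes that act below these receptors, or shed their ligands, were almost all present: 40 of 43 were detected, against 51.4% of protein-coding genes. Their median level was 10.9 RPKM. The highest by mean RPKM were TNIP1, a ubiquitin-binding inhibitor of NF-kappa-B, at 130.5 ± 20.9 (SD, n = 3), and the adaptor TRAF1 at 98.0 ± 31.8. RBCK1, a subunit of the linear ubiquitin ligase, followed at 95.1 ± 4.60 and the deubiquitinating feedback protein TNFAIP3 at 91.1 ± 8.44 RPKM. TRAF1 stood above RBCK1 in replicate 1 alone, at 134.5, 83.0 and 76.6 RPKM against 100.4, 92.7 and 92.1. Over the exon length free of overlap TNFAIP3 stood at 101.3 RPKM, above TRAF1 and RBCK1. The lowest detected by mean RPKM were REL at 0.413 ± 0.225, CASP10 at 1.87 ± 0.292 and the sheddase ADAM17 at 2.03 ± 0.333 RPKM. REL was lowest in replicate 1, at 0.157, 0.509 and 0.574 RPKM in replicates 1, 2 and 3. Other spans overlap 43.3% of the exon sequence of REL and 26.5% of that of ADAM17. Over the free length REL stood at 0.729 RPKM and ADAM17 at 2.76, above MAP3K5 at 2.57. Not detected were TRAF5, with 6, 4 and 0 reads, EDARADD, the adaptor of EDAR, with 2, 2 and 4, and RNF31, the catalytic subunit of the linear ubiquitin ligase, listed at 0 with 55.2% of its exon sequence overlapped.

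Adaptors and caspases of death signalling are added here, picked with their values known. FADD, the adaptor of FAS and the TRAIL receptors, stood at 18.6 ± 4.13 RPKM (SD, n = 3), the initiator CASP8 at 10.3 ± 0.449 and its inhibitor CFLAR at 11.2 ± 0.627. TRADD, the adaptor of TNFRSF1A, stood at 29.1 ± 5.77 and RIPK1 at 27.0 ± 0.954 RPKM. Other spans overlap 59.8% of the exon sequence of FADD, and over the free length it stood at 46.2 RPKM. For CFLAR, TRADD and RIPK1 the overlap was 22.0%, 14.3% and 5.63%, and the free-length levels were 14.3, 33.9 and 28.6 RPKM. CASP8 has no such overlap.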

How the data were processed

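Poly(A) RNA from 3 cultures of RCC4 treated with IFN-gamma and TNF was sequenced from a directional library kit, per the labels' protocols. FastQC, cutadapt 1.18, HISAT2 2.1.0, featureCounts 2.0.0 and the build hg38 are named in the submitters' processing notes. Which annotation release, strand setting and counting or scaling options applied is not given in the sources used here. Each deposited value is a signal, a gene's count divided by the library's size factor, as read from the numbers: 100% of nonzero values were whole multiples of 1 read within 0.01. These whole reads took the place of the counts the design assumed. A single group allows no comparison of groups, and no p-value is given.

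CPM and RPKM used TMM factors from edgeR 4.0.16 under R 4.3.3. Exon lengths, spans and GC content came from GENCODE 29, which matched 96.3% of 60605 identifiers holding 99.9% of the reads. RPKM uses the union of exons. The options for reads in overlapping genes and introns are not stated. Protein-coding genes lying only in the introns of 1 other gene were all listed at 0, 483 on the opposite strand and 115 on the same strand. Counting over whole gene spans on both strands, with shared reads dropped, would give such zeros. Intronic reads may then be included, and RPKM and ratios between genes would carry them to unlike degrees, which was not tested. Levels over the exon length free of overlap are also given. Genes with 1 read numbered 269, 271 and 265 in replicates 1, 2 and 3, and genes with 2 reads 1621, 1748 and 1809. Such an excess arises when both mates of a pair are counted, which the sources used here do not state. Low read counts then stand for fewer RNA fragments than reads. Limits from a count of 0 cover counting error only and are then too low. The rule for pairs was the same sign in 3 libraries and a mean above 2 SD. All members are accounted for, and of the downstream genes the 4 highest, the 3 lowest detected and those not detected are named. The members, lists and pairs were chosen with earlier results of these data known. Read recovery and the replicate 1 ratios were tested on simulated data. Alternatives covered DESeq2 1.42.0 size factors, thresholds, pseudocount, exon length, GC correction and leaving out each replicate.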

Additional observations from a re-analysis of the deposited data

How the results depend on the processing

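The number of members detected stayed between 17 and 27 under all alternatives run. The number of ligands detected depended on the threshold: 5 at 1 CPM became 9 at 0.1 CPM, 3 at 10 CPM and 8 at 10 reads in every library. The median log2 level of ligands, -2.44, became 0.13 with a pseudocount of 1 and 5.03 over detected members only. That of receptors, 0.11, became 0.99 and 2.75. Without the 8 members almost wholly within other genes, an alternative chosen after seeing the data, these medians were -1.84 and 1.41. The number of pairs past the replicate spread, 12 of 13, lay between 11 and 13, and no pair ratio changed sign. Of the pairs, TNFSF10 to TNFRSF10B and TNFSF13B to TNFRSF13C crossed the threshold in some alternatives. FAS was the member below 50% in replicate 1 also with DESeq2 size factors, with GC correction and without replicate 2 or 3. GC correction moved the replicate 1 ratio of 17 of the 21 detected members by more than the SD of replicates 2 and 3, in some to the opposite sign (TNFSF9 from 0.30 to -0.04 on the log2 scale). No paired analysis was possible because the study has 1 group. With 3 libraries and few reads behind the low members, the order among them is not resolved, and TNFRSF14 over TNFSF15 passed by little.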
